A study of Mus musculus with 10 samples.

Results

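Regions that carried an ATAC-seq peak in all 8 libraries of day 3, day 6, day 7 and day 7 with Gdf11, and in neither library of day 2, numbered 2121 of the 246799 regions made by merging the peak lists of the 10 libraries (0.859%). They were chosen by the presence or absence of the authors' peak calls in each library, and by no other value. ATAC-seq reads open chromatin through a transposase that inserts adapters where DNA is not covered by nucleosomes. The cells were wild-type mouse ES-Bruce4 embryonic stem cells of strain C57BL/6, 1 line, grown on inactivated mouse embryo fibroblasts, depleted of these feeders, and differentiated in N2B27 medium toward neuromesodermal progenitors, with 2 libraries in each of 5 groups. All groups received bFgf at 10 ng/ml from day 0. The day 2 cells, labelled ES-derived epiblast stem cells, were taken without CHIR99021, and the later groups, all labelled ES-derived neuromesodermal progenitors, received CHIR99021, an inhibitor of GSK3 that activates Wnt signalling, at 5 µM from day 2. The day 3, day 6 and day 7 groups had no further agent, and the last group also received human Gdf11 at 50 ng/ml for 24 h from day 6 and was taken on day 7. The labels do not state whether the 2 replicates of a group were separate cultures, and p-values therefore measure the spread between libraries.

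Neuromesodermal progenitors are cells of the caudal embryo that give rise to both spinal cord and paraxial mesoderm and that depend on Wnt and Fgf signals. Wnt signalling stabilises beta-catenin, which acts through the DNA-binding proteins of the TCF/LEF family, and among its known targets in the tail bud are the Cdx genes, which help to open and activate the central genes of the Hox clusters. Hox genes are switched on in the order in which they lie along their clusters and give the body axis its regional identity. Gdf11 is a TGF-beta family ligand that acts through Smad2 and Smad3 and is known for its part in the passage from trunk to tail, with activation of posterior Hox genes.

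The libraries held between 7150334 and 12335735 counts in the merged regions and between 80504 and 118603 peaks each. The label of the cells was checked on the promoters of marker genes, in CPM (read counts relative to the library total, scaled by the trimmed mean of M-values, TMM). At the promoter of T, the caudal T-box factor, the day 2 libraries read 6.69 and 8.76 CPM, the day 3 libraries 14.2 and 17.3 CPM, and the later libraries 3.88 to 6.84 CPM. The Cdx2 promoter read 12.3 and 10.9 CPM on day 2, 39.5 and 44.0 CPM on day 3, 28.3 and 21.3 CPM on day 6, 20.1 and 30.8 CPM on day 7 and 12.0 and 8.83 CPM with Gdf11. Nkx1-2, a homeobox gene of the caudal epiblast, read 4.91 and 4.84 CPM on day 2, 11.5 and 15.2 CPM on day 3, 12.1 and 12.9 CPM on day 6, and 5.91 to 8.61 CPM from day 7 on. The promoter of Sox2, which marks neural and neuromesodermal progenitors, read 22.0 to 30.9 CPM in all 10 libraries. Of the genes of the earlier states, the epiblast gene Fgf5 held a promoter peak in all 10 libraries, with 9.10 and 12.4 CPM on day 2 and 7.81 to 10.8 CPM later, so its promoter did not set day 2 apart from the later groups. The pluripotency factor gene Pou5f1 read 3.45 and 4.58 CPM on day 2 and 0.295 to 2.45 CPM later. Otx2 read 3.35 and 2.75 CPM on day 2 and 1.69 to 4.93 CPM later, with overlap. In these bulk libraries, fewer cells with an open region and less opening per cell cannot be told apart.

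Few of the 2121 regions lay at promoters, and sequence could be read for those that did. Of the regions, 36 overlapped a RefSeq promoter window (250 bases before to 50 after a gene start), and 24 of these windows belonged to genes with provisional names. The letters TTTATNG, the core bound by CDX and posterior HOX proteins, on either strand, were found in 9 of the 36 windows (25%), beside 10.9% of 32851 promoters and 7.07% of the 17158 promoters that overlapped any merged region. CTTTGAT or CTTTGAA, the core of TCF/LEF proteins, was found in 7 of the 36 (19.4%), beside 8.65% and 6.11%. These shares are of whole windows, and only 10 of the 36 windows lay wholly inside a region. In the part inside the region, 9 windows held a match to the CDX letters and 5 a match to the TCF/LEF letters. In all, 15 motifs were searched, TCF/LEF in 2 forms, and letters of other motifs were also found. Some of these were more frequent than in all promoters. HOX-PBX letters were in 4 of the 36 (11.1%, beside 3.22% of all and 1.54% of open promoters). AP-1 letters were in 4 (11.1%, beside 7.81% and 5.25%). ZIC letters were in 6 (16.7%, beside 10.5% and 11.3%) and E-box letters in 7 (19.4%, beside 16.3% and 16.3%). GATA letters were in 4 (11.1%, beside 11.2% and 6.13%). MEIS letters were in 5 (13.9%, beside 19.2% and 16.5%). CTCF letters were in 1 and T-box, SOX, POU, NFI and SMAD letters in 0. The CDX letters occurred 10 times in the 36 windows, 0 of them overlapping a TCF/LEF or HOX-PBX match. A match of letters is a description and not evidence of binding. Not every region with such letters changed. Those with CDX letters at Olig3, Dnah5, Kdm3a and Mrpl53 passed the threshold in no comparison tested below. The same held for those with TCF/LEF letters at Dnah5, Sptlc3, Gm20052 and E030011O05Rik. The stretches below, upstream of the gene start and inside a region, were chosen after their values were seen. They carry such letters beside a region that rose by day 6 or lay lower with Gdf11. They are from RefSeq, build GRCm38.p6 (the assembly behind mm10), 5′ to 3′ on the strand of the gene, with matches to the CDX or TCF/LEF letters in capitals.
Dct (chr14:118052247-118052496, minus strand): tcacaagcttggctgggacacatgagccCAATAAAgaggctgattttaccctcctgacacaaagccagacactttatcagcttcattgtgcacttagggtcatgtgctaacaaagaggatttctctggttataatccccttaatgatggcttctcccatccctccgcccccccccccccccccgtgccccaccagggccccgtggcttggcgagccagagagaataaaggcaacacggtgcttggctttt
5730596B20Rik (chr6:52176905-52177154, plus strand, within Hoxa3): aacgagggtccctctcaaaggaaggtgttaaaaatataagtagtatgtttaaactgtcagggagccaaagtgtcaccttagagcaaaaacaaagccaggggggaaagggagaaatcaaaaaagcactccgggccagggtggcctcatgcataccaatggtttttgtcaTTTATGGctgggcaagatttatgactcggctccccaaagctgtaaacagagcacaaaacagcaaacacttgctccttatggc
Gm29905 (chr15:102998168-102998290, minus strand, within Hoxc6): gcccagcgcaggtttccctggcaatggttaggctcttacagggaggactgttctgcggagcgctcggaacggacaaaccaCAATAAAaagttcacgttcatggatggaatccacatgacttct
Gm31762 (chr4:137142459-137142708, minus strand, 93440 bp from Zbtb40): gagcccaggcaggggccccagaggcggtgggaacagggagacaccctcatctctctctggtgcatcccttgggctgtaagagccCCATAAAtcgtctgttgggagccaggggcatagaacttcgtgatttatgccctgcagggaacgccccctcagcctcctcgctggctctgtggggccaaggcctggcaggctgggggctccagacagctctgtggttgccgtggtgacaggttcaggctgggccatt
Gm13790 (chr5:114551039-114551288, plus strand, 16822 bp from Fam222a): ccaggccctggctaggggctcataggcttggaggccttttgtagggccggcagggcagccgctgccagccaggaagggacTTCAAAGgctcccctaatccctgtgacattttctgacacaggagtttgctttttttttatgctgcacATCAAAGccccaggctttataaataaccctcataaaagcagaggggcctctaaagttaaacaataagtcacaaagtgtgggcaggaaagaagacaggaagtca

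The first 4 stretches each hold 1 match to the CDX letters, and the stretch of Gm13790 holds 2 matches to the TCF/LEF letters. The region at the promoter of Dct, which encodes an enzyme of melanin synthesis, read 1.78 and 1.44 CPM on day 2, 5.27 and 4.91 on day 3, 42.3 and 32.4 on day 6, 39.9 and 50.8 on day 7, and 25.2 and 27.0 with Gdf11. Its level rose from day 3 to day 6 by 2.87 ± 0.21 (log2, SE; adjusted p = 1.55e-15, edgeR quasi-likelihood test with Benjamini-Hochberg adjustment over all regions tested, with a threshold of 0.05) and was lower with Gdf11 by -0.79 ± 0.18 (adjusted p = 0.00327), a call that was lost without day 7 replicate 2. The region at Gm13790 read 0.209 and 0.262 CPM on day 2 and 17.0 and 17.9 on day 3, stayed between 17.0 and 29.0 through day 7, and read 13.1 and 16.4 with Gdf11. Its Gdf11 groups lay below both day 7 libraries (-0.95 ± 0.19, adjusted p = 0.00102), a call lost without Gdf11 replicate 1. Another member, inside the protein-coding gene Smoc1, contains the whole hairpin of Mir3067 on chromosome 12, whose arms are, with the seed (bases 2 to 8) in capitals and from RefSeq build GRCm38.p6:
mmu-miR-3067-5p: aGUUCUCAggcccgcuguggugu
mmu-miR-3067-3p: cCAAGCGGcugcccugggagagg

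The seeds of the 2 arms differ. The Smoc1 region around this hairpin (chr12:81166061-81166568) read 1.36 and 0.784 CPM on day 2, 8.49 and 8.66 on day 3, 30.9 and 26.7 on day 6, 44.8 and 49.5 on day 7, and 20.4 and 30.1 with Gdf11. The level rose from day 3 to day 6 by 1.75 ± 0.21 (log2, adjusted p = 2.29e-09) and again to day 7 by 0.70 ± 0.18 (adjusted p = 0.0317), and fell with Gdf11 by 0.90 ± 0.18 (adjusted p = 0.000874). The day 7 call was lost with library size as the only scaling (adjusted p = 0.0682) and without any 1 of the 4 libraries, and the Gdf11 call was lost without Gdf11 replicate 1 (adjusted p = 0.114). A further member lies 313 bp from Mir24-1, whose hairpin shares a cluster with Mir23b and Mir27b inside Aopep. The Aopep region read 0.523 and 0.654 CPM on day 2, 13.6 and 13.6 on day 3, 32.6 and 31.2 on day 6, 29.96 and 36.5 on day 7, and 17.0 and 20.1 with Gdf11, with both Gdf11 libraries below both day 7 libraries (log2 -0.84 ± 0.18, adjusted p = 0.00254), a call lost without day 7 replicate 2 or Gdf11 replicate 1. ATAC-seq does not measure the miRNAs themselves.

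Across all 2121 regions the median level was 0.836 and 1.05 CPM in the day 2 libraries, 4.59 and 4.47 on day 3, 8.47 and 7.53 on day 6, 8.01 and 8.25 on day 7, and 5.99 and 6.24 with Gdf11. Together they held 0.226% and 0.236% of the counts on day 2, 1.36% and 1.22% on day 3, 2.36% and 2.07% on day 6, 2.43% and 2.48% on day 7, and 1.80% and 1.82% with Gdf11. The day 2 values are the lowest because the rule asked for no day 2 peak, and the step to day 3 is given only as a description. All 2121 regions had a positive fitted day 3 change, with a median log2 of 2.33, values that the choice of regions set. No day 2 peak does not mean no day 2 counts: 20 regions had 0 counts in both day 2 libraries and the highest day 2 level of any region was 7.06 CPM. The group with the highest mean was day 7 for 939 regions, day 6 for 611, Gdf11 for 295 and day 3 for 276.

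**Figure D1:**
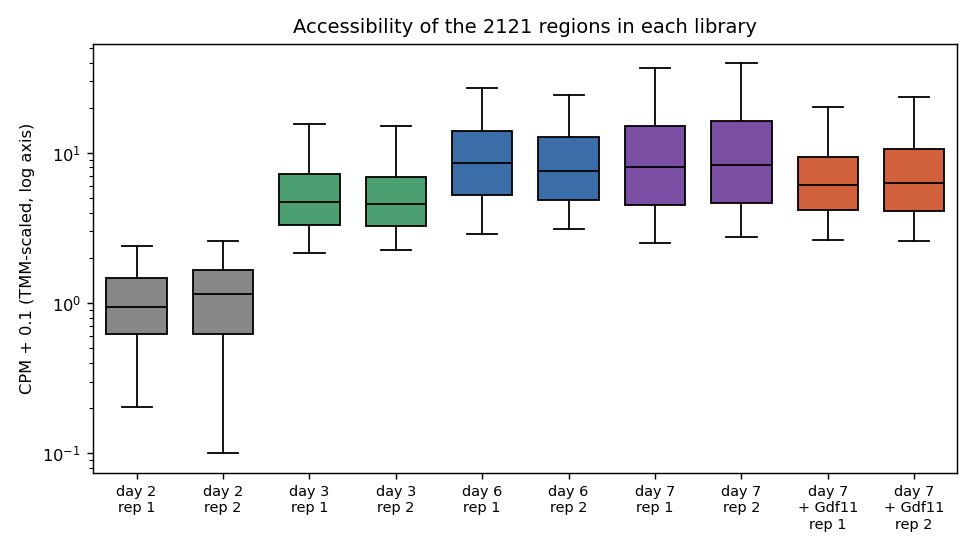
Level of the 2121 regions in each of the 10 libraries, in TMM-scaled CPM plus 0.1 on a log axis. Boxes span the quartiles with the median as a line, and whiskers reach the 5th and 95th percentiles. The medians are 0.836 and 1.05 CPM on day 2, 7.53 to 8.47 CPM on day 6 and day 7, and 5.99 and 6.24 CPM with Gdf11.

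The rule has an edge on either side. A further 2233 regions had peaks in 7 of the 8 later libraries and none on day 2, with a median day 2 level of 0.863 CPM beside 0.941 CPM for the regions described. Another 1835 had all 8 later peaks and 1 day 2 peak, with a median day 2 level of 2.17 CPM. At the threshold itself, the weakest of the 8 later peaks of a region had a median −log10 q of 5.16 in the authors' peak lists, with a lowest value of 1.99, and in 1179 regions all 8 peaks reached 5. Leaving day 2 replicate 1 out of the rule gave 3587 regions, and leaving day 3 replicate 2 out gave 3237.

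The median width of the regions was 430 bp, beside 184 bp for all merged regions and 453 bp for the 32314 regions with a peak in all 10 libraries. The nearest RefSeq gene start was a median of 39346 bp away, beside 25537 bp for all regions and 7554 bp for those with a peak in all 10 libraries. For the other sets without a day 2 peak the median was 31894 bp for the regions with peaks on day 3 only, 43331 bp for those with peaks on day 6 to 7 only and 35620 bp for those with 7 of the 8 later peaks. Of 2035 regions with a start site on the same chromosome in the table, 84 (4.13%) lay within 1 kb of one, beside 11.4% of all regions, 37.9% of those with a peak in all 10 libraries, and 4.11%, 4.44% and 5.81% of the 3 sets without a day 2 peak. Inside the span of a protein-coding gene lay 970 (45.7%), beside 50.9% of all regions, and 13.5% lay beyond 200 kb of any such gene, beside 9.84%. Peak summits of the 8 later libraries fell within 50 bp of each other in 8.63% of the regions, beside 24.3% of the regions with a peak in all 10 libraries.

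Most regions stood alone. With a spacing of at most 50 kb, 331 regions fell into 147 groups of 2 or more, and 1790 had no such neighbour. Of the 8 groups with at least 4 regions, the one with the most regions lay at the HoxC cluster with 9, 7 of them inside the cluster. The next lay in the HoxB cluster with 6. The others, with 4 each, lay at Mycn, a proto-oncogene of the Myc family, at Pik3r1, a regulatory subunit of PI3-kinase, at Abcc4, Arhgap24 and Psd3, and at Magel2 and Mkrn3, a pair of imprinted genes. A region lay in or within 50 kb of 1222 of 21900 protein-coding genes (5.58%). Psd3 had the most, 7 regions, all inside its span of 522982 bp, followed by Abcc4 and the synaptic adhesion gene Nrxn3 with 5 each.

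From day 3 to day 6, most regions that changed became more open. By the edgeR test, 925 regions (43.6%) were higher on day 6, where 9.19% of all 173175 regions tested were, and 53 (2.50%) were lower, where 6.05% were. The median log2 change was 0.74, beside 0.02 over all regions tested, and 777 of the 925 rose at least 2-fold. The libraries of each called region did not overlap between the groups. The share without overlap among all called regions was not counted, so nothing is read from this. The regions of all 10 libraries, whose median level of 9.91 CPM over the later libraries is nearer to the 7.03 CPM of these regions than the 1.14 CPM of all regions, were called higher in 5.86% and lower in 9.68%. Among regions with a peak in 7 of the 8 later libraries, 43.98% were called higher, and among those with 1 day 2 peak 26.1%. The rule required peaks in all 4 of the day 3 and day 6 libraries. The lower count moved by over 1.5 times with the libraries, to 33 and 32 without day 3 replicate 1 or 2 and to 20 and 29 without day 6 replicate 1 or 2.

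The largest rise, also the one with the smallest p, was at a region 19715 bp from Gm815 (chr19:26865651-26866210), which read 3.82 and 2.89 CPM on day 3 and 34.0 and 34.1 CPM on day 6. Both day 6 libraries were far above both day 3 libraries, a log2 change of 3.30 ± 0.22 (adjusted p = 7.05e-17). It reached 56.7 and 71.9 CPM on day 7 and fell to 24.9 and 27.9 CPM with Gdf11. A region 32627 bp from Ptprc, which encodes the leukocyte antigen CD45, read 3.14 and 3.75 CPM on day 3 and 33.1 and 31.1 CPM on day 6 (log2 3.24 ± 0.23, adjusted p = 2.99e-16). A region 108645 bp from the protocadherin gene Pcdh18, read 6.46 and 6.64 CPM and then 47.9 and 43.2 CPM (log2 2.80 ± 0.19, adjusted p = 1.80e-16). The nearest gene is given only as a landmark.

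The regions that fell by day 6 had a median of 14.3 CPM on day 3, beside 4.42 CPM for the regions that rose. The rule asked for a peak on day 6 as well, and the day 3 level enters the call. This difference is therefore only a description. A region 235189 bp from Pgrmc2 read 32.4 and 27.9 CPM on day 3 and 5.43 and 6.16 CPM on day 6, a log2 change of -2.39 ± 0.25 (adjusted p = 7.43e-11). A region 40257 bp from the helicase gene Dhx35 read 28.4 and 31.0 CPM and then 7.75 and 7.66 CPM (log2 -1.94 ± 0.24, adjusted p = 7.54e-09). A region 40633 bp from Zdhhc21, a palmitoyltransferase gene, read 31.7 and 33.5 CPM and then 11.3 and 10.7 CPM (log2 -1.56 ± 0.22, adjusted p = 1.47e-07). These 3 regions had their highest level on day 3.

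**Figure D2:**
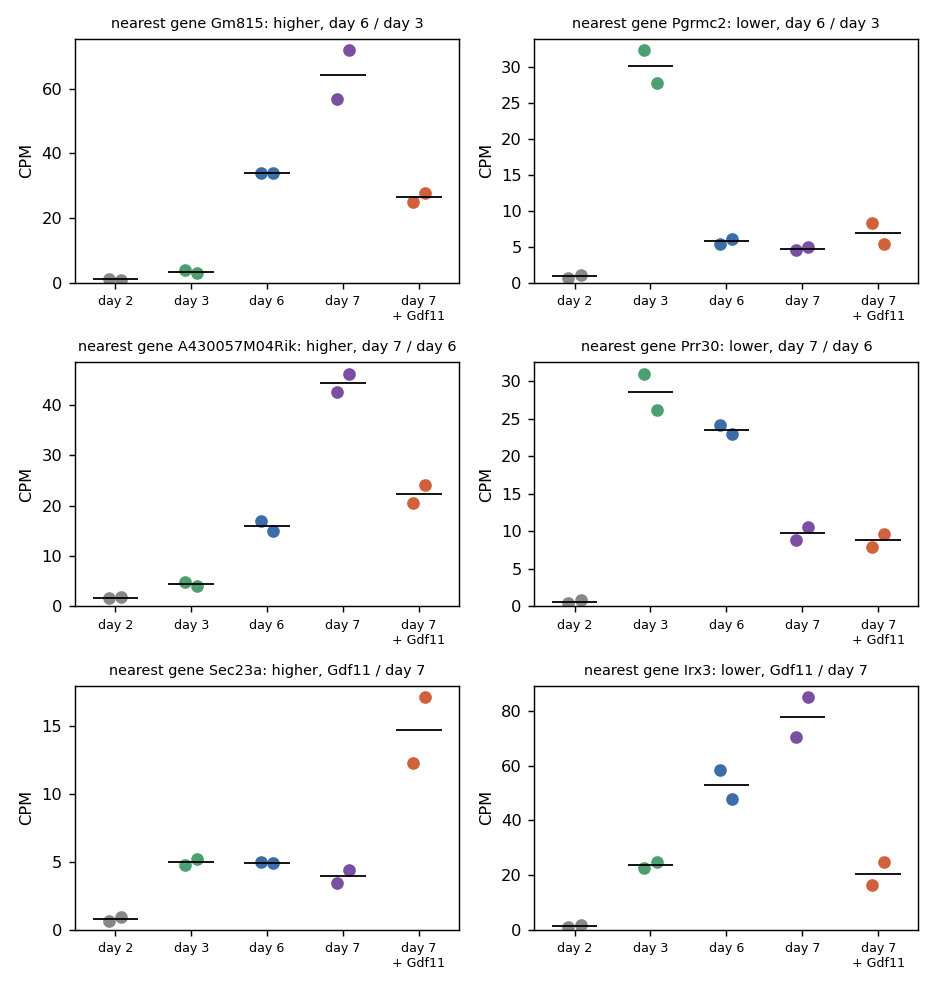
CPM in each library (points) and group means (lines) of the region with the smallest p in each direction of the 3 comparisons tested. The region near Gm815 goes from 3.82 and 2.89 CPM on day 3 to 34.0 and 34.1 on day 6, the region near Pgrmc2 from 32.4 and 27.9 to 5.43 and 6.16, and the region near Irx3 from 70.4 and 85.0 on day 7 to 16.2 and 24.6 with Gdf11.

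Between day 6 and day 7 fewer regions changed. By the edgeR test 172 regions (8.11%) were higher on day 7, where 0.974% of all regions were, and 28 (1.32%) were lower, where 0.207% were; the median log2 change was 0.06. Called higher were 1.77% of the regions of all 10 libraries, 7.44% of those with peaks on day 6 to 7 only, 6.38% of those with 1 day 2 peak and 6.05% of those with 7 of the 8 later peaks. Fewer were called higher once day 6 replicate 2 (69) or day 7 replicate 2 (68) was left out. The count of lower regions was 5 and 12 when day 6 replicate 1 or 2 was dropped, and 12 and 7 when day 7 replicate 1 or 2 was dropped. A region 46586 bp from A430057M04Rik read 16.9 and 14.9 CPM on day 6 and 42.6 and 46.2 CPM on day 7 (log2 1.48 ± 0.19, adjusted p = 1.89e-06). A region 31964 bp from the zinc-finger gene Zfp64 read 9.43 and 8.48 CPM and then 27.3 and 28.4 CPM (log2 1.63 ± 0.22, adjusted p = 3.47e-06), and a region 88713 bp from Paqr3 read 10.9 and 10.3 CPM and then 30.3 and 34.8 CPM (log2 1.61 ± 0.21, adjusted p = 2.43e-06). All 3 had also risen from day 3 to day 6.

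Of the regions that fell on day 7, one inside Bcl2, the anti-apoptotic gene, rose and fell within the time course. It read 4.08 and 3.75 CPM on day 3, 24.8 and 21.3 on day 6 and 10.1 and 6.63 on day 7 (log2 -1.44 ± 0.26, adjusted p = 0.000645), and 3.12 and 3.66 with Gdf11. The day 7 call for Bcl2 was lost without day 7 replicate 2. A region 68560 bp from Prr30 read 24.1 and 23.0 CPM on day 6 and 8.82 and 10.6 CPM on day 7 (log2 -1.29 ± 0.21, adjusted p = 0.000153), and a region 3866 bp from the intestinal homeobox gene Isx read 19.0 and 15.9 CPM and then 7.29 and 5.45 CPM (log2 -1.44 ± 0.25, adjusted p = 0.000246). Neither differed in level with Gdf11 past the threshold.

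With Gdf11, the regions that changed were mostly less open. By the edgeR test 567 regions (26.7%) were lower with Gdf11 than on day 7 without it, where 2.65% of all regions were, and 22 (1.04%) were higher, where 1.09% were. The median log2 change was -0.44, beside 0.03 over all regions tested, and 376 of the 567 fell at least 2-fold. All these regions still held a peak in both Gdf11 libraries, as the rule required, so regions that lost their peak under Gdf11 are not among them. The regions of all 10 libraries were called lower in 5.22%, with a median log2 of -0.17, those with 1 day 2 peak in 14.93%, those with 7 of the 8 later peaks in 14.24%, and those with peaks in all 6 libraries of day 6, day 7 and Gdf11 and in none of day 2 and day 3 in 11.96%. Scaling by library size alone moved the split over all regions from 1883 higher and 4581 lower to 2626 and 2649, and left 403 of the 2121 regions lower. The count of lower regions was 342 without day 7 replicate 2 and 298 without Gdf11 replicate 1, and the count of higher regions was 5 and 10 without day 7 replicate 1 or 2 and 10 and 9 without Gdf11 replicate 1 or 2.

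**Figure D3:**
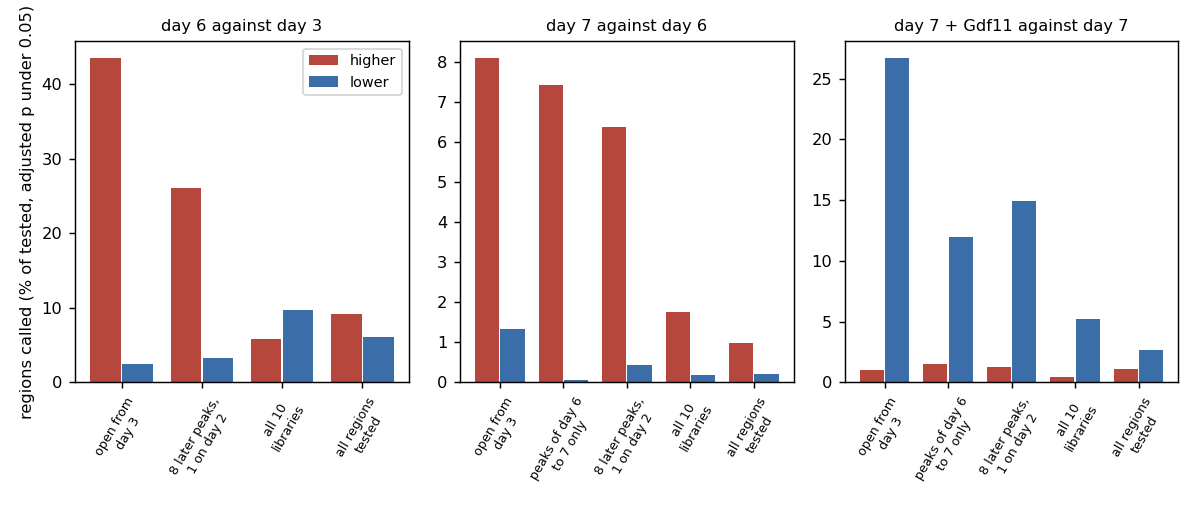
Share of regions called higher (red) and lower (blue) at an adjusted p under 0.05 in the 3 comparisons, in percent of regions tested, for the 2121 regions and for other sets; the vertical scales differ, and the set with peaks on day 6 to 7 only is left out of the first panel because that contrast chose it. With Gdf11, 26.7% of the 2121 regions were lower, beside 5.22% of the regions with a peak in all 10 libraries.

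The smallest p in the Gdf11 comparison was at a region 74342 bp from Irx3 (chr8:91875996-91876770), a homeobox gene of the neural tube. It read 22.5 and 24.8 CPM on day 3, 58.4 and 47.8 on day 6, 70.4 and 85.0 on day 7, and 16.2 and 24.6 with Gdf11. Both Gdf11 libraries lay below both day 7 libraries, and the change was -1.93 ± 0.18 (log2, adjusted p = 1.80e-10), a 3.82-fold fall to about the day 3 level. A region inside Spsb4, an adaptor of ubiquitin ligases, went from 47.2 and 54.2 CPM to 13.3 and 15.4 CPM (log2 -1.82 ± 0.19, adjusted p = 1.29e-09). A region far from any protein-coding gene, 722271 bp from Gsdmc, went from 97.8 and 119 CPM to 34.3 and 40.0 CPM (log2 -1.54 ± 0.15, adjusted p = 5.93e-10). That region, one inside Dis3l2 and one inside Zic4, a zinc-finger gene of the dorsal neural tube, were the 3 most open regions over the later libraries. The Zic4 region read 20.0 and 15.9 CPM on day 3, 56.6 and 58.1 on day 6, 113 and 128 on day 7, and 46.9 and 69.6 with Gdf11 (log2 -1.05 ± 0.15, adjusted p = 4.13e-06).

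Of the 22 regions that were higher with Gdf11, the smallest p belonged to a region 309494 bp from Sec23a, which read 4.76 and 5.20 CPM on day 3, 4.95 and 4.92 on day 6, 3.42 and 4.42 on day 7, and 12.2 and 17.1 with Gdf11 (log2 1.92 ± 0.30, adjusted p = 1.06e-05). A region inside the cadherin gene Cdh13 read 4.77 and 4.42 CPM on day 7 and 14.0 and 12.8 CPM with Gdf11 (log2 1.54 ± 0.29, adjusted p = 0.000321). The region nearest to Cdh20, 1241893 bp away, fell from 21.9 and 23.4 CPM on day 3 to 7.27 and 7.53 CPM on day 6 and read 15.1 and 14.3 CPM with Gdf11, beside 5.04 and 6.78 CPM on day 7 (log2 1.34 ± 0.25, adjusted p = 0.00032). At Smad7, which encodes the inhibitory Smad that TGF-beta family ligands induce, a region 14269 bp from the gene read 4.41 and 4.57 CPM on day 7 and 11.8 and 10.4 CPM with Gdf11 (log2 1.31 ± 0.31, adjusted p = 0.00543). The Smad7 call was lost without day 7 replicate 1, day 7 replicate 2 or Gdf11 replicate 1. The TGF-beta and Smad list had regions at 2 of its 20 genes, and this was the only 1 of its 3 regions called with Gdf11.

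The regions that opened further by day 6 were those called lower with Gdf11 most often, 2 comparisons that share no library. Of the 925 regions higher on day 6, 420 (45.4%) were lower with Gdf11, and they made up 74.1% of the 567. Of the 1143 regions not called on day 6, 139 (12.2%) were lower with Gdf11, and of the 53 lower on day 6, 8 (15.1%) were. Over all regions tested the same shares were 16.98%, 1.21% and 1.00%. Across the 2121 regions the 2 log2 changes had a Pearson r of -0.43 and a Spearman rho of -0.44, beside -0.18 and -0.20 over all regions tested and -0.34 and -0.27 over the regions of all 10 libraries. Regions are not independent replicates and share their libraries, so this is a description. Among the regions higher on day 6, the median level was 12.5 CPM there, beside 5.39 CPM for those not called, so the depth behind these calls differed. In 513 of the 567 regions the Gdf11 mean lay below the day 6 mean, and in 166 it lay below the day 3 mean.

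**Figure D4:**
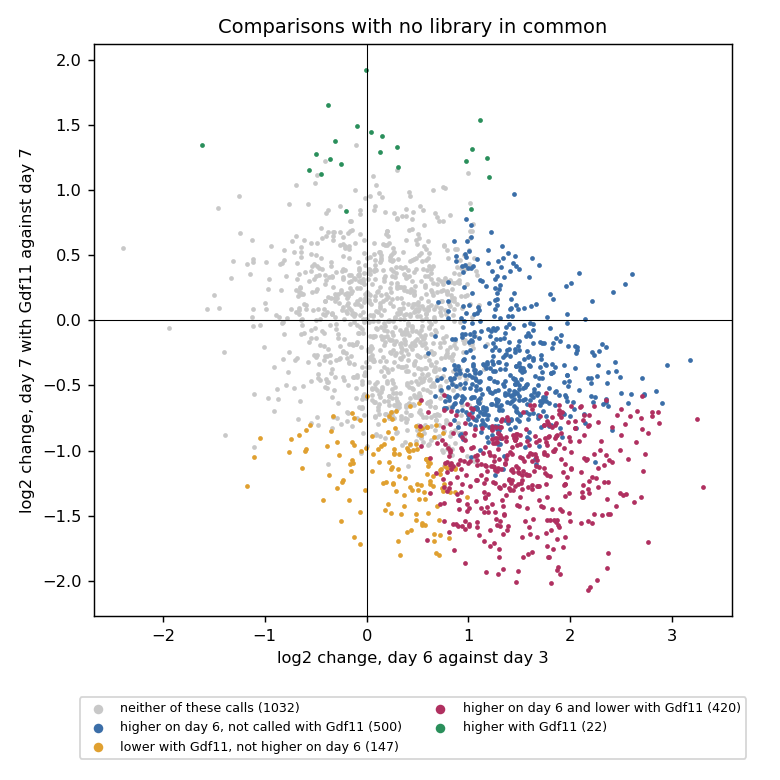
Each point is 1 of the 2121 regions, with its log2 change from day 3 to day 6 on the horizontal axis and from day 7 to day 7 with Gdf11 on the vertical axis, coloured by calls at an adjusted p under 0.05. The 420 regions called higher on day 6 and lower with Gdf11 sit at the lower right, and 22 were higher with Gdf11.

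Of the gene lists examined, the Hox genes had the most regions, but also the most genes, 39 beside 10 to 20 in the other lists. Of 39 Hox genes, 13 (33.3%) had a region, 21 regions in all, where 5.58% of all genes had 1. The share of genes with a region was higher in the neural crest list (50%) and the neural list (35%). It was 20% to 26.3% in the caudal, Wnt, pluripotency and endoderm lists, and 0% to 15% in the remaining lists. The 39 genes lie in 4 dense clusters, so neighbouring genes compete for the nearest region. A region inside more than 1 span went to the span listed first. Regions 858 bp from the start of Hoxb4 and 591 bp from that of Hoxd4 counted for Hoxb3 and Hoxd3, whose spans cover them. By paralogue group, 6 of 12 genes of groups 1 to 4 had 13 regions, 5 of 15 genes of groups 5 to 9 had 6, and 2 of 12 genes of groups 10 to 13 had 2. From day 3 to day 6, 4 of the 21 rose and 2 fell by the edgeR test, beside 43.6% and 2.50% of all 2121 regions. The 4 became 1 without day 3 replicate 1, day 3 replicate 2 or day 6 replicate 1. The 2 became 1 with DESeq2 or without day 6 replicate 1 and 0 without day 3 replicate 2 or day 6 replicate 2. From day 6 to day 7, 5 rose and 0 fell, beside 8.11% and 1.32%. The 5 became 2 with library size as the only scaling or without day 6 replicate 1 or 2, and 0 without day 7 replicate 2. With Gdf11, 13 of the 21 were lower and 1 was higher, beside 26.7% and 1.04% of the 2121. Of the 21 log2 changes 20 were negative, with a median of -0.82, beside 1498 of the 2121 and a median of -0.44. The 13 became 4 without day 7 replicate 2 and 4 without Gdf11 replicate 1, with 20 negative changes in both cases, and the 1 higher became 0 without day 7 replicate 1 or Gdf11 replicate 2.

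**Figure D5:**
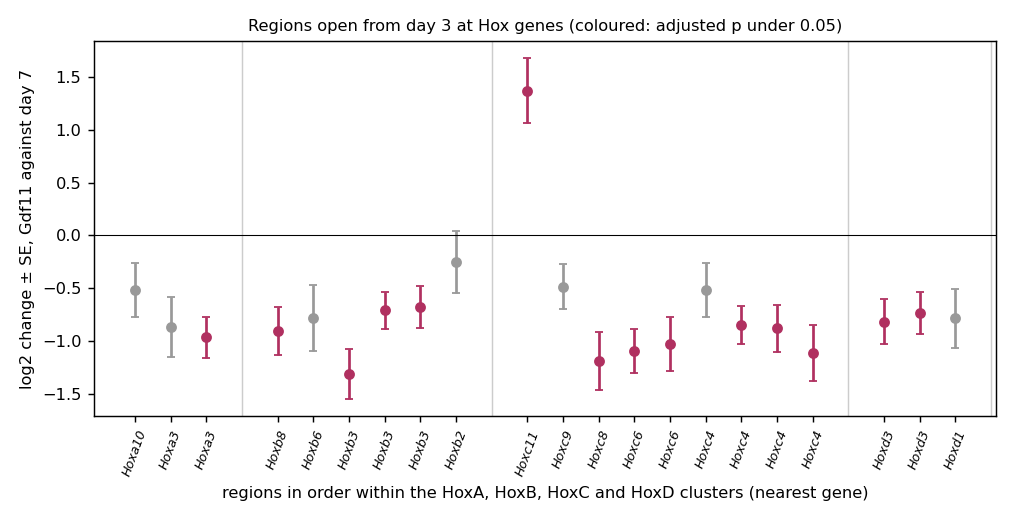
Log2 change from day 7 to day 7 with Gdf11, with its standard error, of the 21 regions at Hox genes, in order along the HoxA, HoxB, HoxC and HoxD clusters from the posterior to the anterior end. Coloured points have an adjusted p under 0.05; 13 lie below 0 and the region at Hoxc11 lies above it at 1.38.

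The most open Hox region (chr11:96319125-96319820) lay inside the span of Hoxb3 and 858 bp from the start of Hoxb4, and is listed under Hoxb3. It read 3.97 and 5.23 CPM on day 2, 37.2 and 42.1 on day 3, 34.1 and 37.5 on day 6, 36.3 and 58.3 on day 7, and 25.2 and 32.2 with Gdf11 (log2 -0.71 ± 0.18, adjusted p = 0.0102). Another, inside Hoxc4, read 1.57 and 2.09 CPM on day 2, 30.1 and 33.8 on day 3, 27.4 and 22.2 on day 6, 34.8 and 44.3 on day 7, and 20.7 and 23.1 with Gdf11 (log2 -0.85 ± 0.18, adjusted p = 0.00153). The region of the 5730596B20Rik stretch printed above, inside Hoxa3, read 1.99 and 2.35 CPM on day 2, 18.0 and 22.7 on day 3, 23.3 and 20.9 on day 6, 26.2 and 32.5 on day 7, and 13.3 and 16.7 with Gdf11 (log2 -0.97 ± 0.20, adjusted p = 0.000911). In all 3 the Gdf11 libraries lay below both day 7 libraries, and each of these Gdf11 calls was lost without 1 library or more (Hoxb3 and Hoxc4 without day 7 replicate 2, Hoxb3 and Hoxa3 without Gdf11 replicate 1).

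In the middle of the clusters, the Hoxc6 region of the Gm29905 stretch rose at each step. It read 7.98 and 7.36 CPM on day 3, 12.7 and 13.7 on day 6, 24.9 and 31.5 on day 7, and 13.2 and 13.1 with Gdf11. The rise to day 6 was 0.77 ± 0.23 (adjusted p = 0.0152), lost without any 1 of the 4 libraries, the rise to day 7 was 1.09 ± 0.21 (adjusted p = 0.00135), lost without day 7 replicate 2, and with Gdf11 it fell by 1.09 ± 0.21 (adjusted p = 0.000416). At Hoxb8, which is expressed in the trunk, the region went from 25.6 and 29.4 CPM on day 3 to 19.3 and 13.1 on day 6 (log2 -0.74 ± 0.21, adjusted p = 0.01) and to 7.93 and 9.90 with Gdf11, from 14.1 and 19.6 on day 7 (log2 -0.91 ± 0.23, adjusted p = 0.0101). Both Hoxb8 calls were lost without 1 library or more (day 3 replicate 2 or day 6 replicate 2, and day 7 replicate 2 or Gdf11 replicate 1). At Hoxc9 the region read 19.5 and 29.0 CPM on day 7 and 15.4 and 19.1 with Gdf11, a difference that did not pass the test (log2 -0.49 ± 0.21, adjusted p = 0.224).

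At the posterior end, the region 2944 bp from Hoxc11 was the exception in direction. It read 7.13 and 6.64 CPM on day 3, 6.31 and 4.65 on day 6, 3.33 and 4.57 on day 7, and 8.78 and 11.4 with Gdf11 (log2 1.38 ± 0.30, adjusted p = 0.00282). Both Gdf11 libraries lay above both day 7 libraries, and the call was lost without day 7 replicate 1 or Gdf11 replicate 2. The region 72 bp from Hoxa10 read 12.4 and 13.1 CPM on day 7 and 7.85 and 10.0 with Gdf11 (log2 -0.52 ± 0.26, adjusted p = 0.31). Of these 2 posterior regions, only the one at Hoxc11 passed the test with Gdf11.

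At the caudal epiblast and neuromesodermal list, 4 of 18 genes had 7 regions, of which 3 rose by day 6 and 0 fell, where 43.6% of the 2121 regions rose. The 3 became 1 with DESeq2 or without day 3 replicate 2 or day 6 replicate 1. With Gdf11, 3 were lower, where 26.7% of the 2121 were, and 1 was higher. The 3 became 1 without day 7 replicate 2 or Gdf11 replicate 1 and 2 with library size as the only scaling or without Gdf11 replicate 2. The 1 became 0 without day 7 replicate 1 or Gdf11 replicate 2. Sall4, a zinc-finger gene of early embryonic and caudal cells, had a pair of regions on one side, 28820 and 36568 bp from the gene, that went opposite ways. The nearer read 14.1 and 14.7 CPM on day 3, 3.33 and 6.19 on day 7, and 9.37 and 11.1 with Gdf11 (log2 1.16 ± 0.28, adjusted p = 0.00841). The farther read 4.84 and 6.35 CPM on day 3, 22.7 and 24.3 on day 7, and 10.3 and 15.2 with Gdf11 (log2 -0.89 ± 0.22, adjusted p = 0.011). Each Sall4 Gdf11 call was lost without 1 day 7 or 1 Gdf11 library: day 7 replicate 1 or Gdf11 replicate 2 for the nearer, day 7 replicate 2 or Gdf11 replicate 1 for the farther. A region 29306 bp from Cyp26a1, whose enzyme clears retinoic acid in the tail bud, read 14.4 and 16.1 CPM on day 7 and 6.84 and 7.10 with Gdf11 (log2 -1.12 ± 0.25, adjusted p = 0.00261). The region inside Greb1 read 8.01 and 13.6 CPM on day 7 and 8.53 and 12.7 with Gdf11, with overlapping groups.

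Of the Wnt target and feedback list, 5 of 19 genes had 6 regions, 3 of which rose and 1 of which fell by day 6, and 3 were lower with Gdf11, beside 43.6%, 2.50% and 26.7% of the 2121. The 3 that rose became 1 with DESeq2 or without day 3 replicate 1, day 3 replicate 2 or day 6 replicate 1. The 3 lower with Gdf11 became 1 without day 7 replicate 2, and 2 with library size as the only scaling or without Gdf11 replicate 1 or 2. At Nkd1, a feedback inhibitor of Wnt signalling, the region 25671 bp away read 24.7 and 28.4 CPM on day 3, 12.5 and 12.0 on day 6, 10.2 and 15.9 on day 7, and 6.58 and 5.71 with Gdf11. It fell from day 3 to day 6 by 1.10 ± 0.22 (adjusted p = 0.000171) and with Gdf11 by 1.05 ± 0.24 (adjusted p = 0.00469), the Gdf11 call being lost without day 7 replicate 2. Inside Lef1, the gene of the Wnt effector, the region took the other course, with 6.29 and 4.91 CPM on day 3, 12.6 and 12.9 on day 6, 20.2 and 20.3 on day 7, and 16.8 and 18.6 with Gdf11. It rose by day 6 (log2 1.16 ± 0.24, adjusted p = 0.000361) and did not pass the test with Gdf11 (log2 -0.20 ± 0.21, adjusted p = 0.718).

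Of the neural list, 7 of 20 genes had 9 regions, of which 3 rose and 1 fell by day 6 and 3 rose by day 7, beside 43.6%, 2.50% and 8.11% of the 2121. The 3 of day 6 became 2 without day 3 replicate 1 or day 6 replicate 1. The 1 that fell became 0 with DESeq2 or without day 3 replicate 2 or day 6 replicate 1. The 3 of day 7 became 1 without day 6 replicate 2 or day 7 replicate 2, and 2 without the other library of either day or with library size as the only scaling. With Gdf11, 6 of the 9 were lower, beside 26.7% of the 2121, and 9 of 9 changes were negative, beside 1498 of the 2121. The 6 became 3 without Gdf11 replicate 1, and 4 with library size as the only scaling, with DESeq2 or without Gdf11 replicate 2. The region 6633 bp from Neurog2, a proneural gene, read 9.43 and 8.08 CPM on day 3, 26.2 and 18.1 on day 6, 24.7 and 22.7 on day 7, and 7.09 and 8.18 with Gdf11. It rose by day 6 (log2 1.34 ± 0.22, adjusted p = 8.05e-06) and fell with Gdf11 by 1.64 ± 0.22 (adjusted p = 1.06e-06), in each case also without any 1 library. Near its relative Neurog1, 5625 bp away, a region read 26.0 and 31.4 CPM on day 7 and 17.2 and 20.6 with Gdf11 (log2 -0.60 ± 0.20, adjusted p = 0.0848), after a rise from day 6 to day 7 of 1.17 ± 0.21 (adjusted p = 0.000424). The Neurog2 region was named after its values were seen.

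Lists of other lineages also had regions, where 5.58% of all protein-coding genes had 1. The lists share some genes, and a region at such a gene counts in each list that holds it. Sall4 is in the caudal and pluripotency lists, Pax3 in the neural and neural crest lists, and Foxa2 in the neural and endoderm lists. The lists are therefore not separate evidence. The mesoderm list had regions at 3 of 20 genes, among them one inside Aldh1a2, which makes retinoic acid in somites. It read 10.0 and 5.92 CPM on day 3, 18.5 and 15.3 on day 6, 28.0 and 35.2 on day 7, and 17.3 and 16.8 with Gdf11 (log2 -0.88 ± 0.21, adjusted p = 0.00595), a call lost without day 7 replicate 2. The neural crest list had 6 regions at 5 of 10 genes, with 3 lower with Gdf11, beside 26.7% of the 2121. The 3 became 1 with DESeq2 or with library size as the only scaling, and were fewer without either Gdf11 library. The endoderm list had 3 regions at 3 of 15 genes. The pluripotency list had 6 regions at 4 of 20 genes, among them one 24817 bp from Dppa3 that read 22.5 and 16.9 CPM on day 3 and 4.73 and 4.63 with Gdf11, beside 12.5 and 11.8 on day 7 (log2 -1.38 ± 0.25, adjusted p = 0.000211). For the feeder cells, the fibroblast list had a region at 1 of 14 genes, Fn1, which rose by day 6 (log2 1.41 ± 0.27, adjusted p = 6.85e-05). The lateral plate, heart and blood list had regions at 2 of 14 genes and the housekeeping list at 0 of 18.

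In the authors' deposited table of motifs, for their comparison of day 2 with day 3, the LEF1 motif was in 42.1% of target sequences and 15.0% of background sequences, and the CDX4 motif in 44.5% and 17.4%. The authors' deposited table does not name the regions it was made from, so it cannot be set against the 2121 regions one by one.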

How the data were processed

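ATAC-seq was measured in 10 libraries. Per the submitters' processing notes, the build was mm10 and the tools named were MACS2 2.1.1.20160309, HOMER 4.10, bedtools, HISAT2 2.1.0 and SAMtools; their roles and the counter are not given in the sources used here. The authors deposited peaks called per library, named as free of duplicates, with a fold enrichment ratio, a −log10 q and a summit position (an offset in bp) for each peak. They also deposited raw counts per merged region, and a percent of sequences with each motif in a table of their own. Whether reads were shifted for the transposase, and whether reads or fragments were counted, is not given in the sources used here; a shift of a few bases is small beside the median width of 430 bp.

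The 10 lists were merged with bedtools 2.31.1 in character order of chromosomes, which gave 246799 regions, as many as rows in the counts. The check that a library's own peaks had counts found 0 regions with a count of 0. filterByExpr kept 173175 regions and removed 73624, and all 2121 regions described passed it. Libraries were scaled by TMM and fitted in 1 model by group with edgeR 4.0.16 in R 4.3.3 (quasi-likelihood test), with Benjamini-Hochberg adjustment over all regions tested and a threshold of 0.05. The fit was tested on simulated data. Alternatives were DESeq2 1.42.0, its size factors, library size only, no filter, the 2 groups alone, a replicate block, each library left out, and other peak rules.

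The regions were chosen by their peaks, so the day 3 against day 2 difference is not tested. Members and gene lists were chosen with earlier results of these data known. A region belongs to the nearest span of a protein-coding gene within 50 kb. Named regions are the 3 with the smallest p per comparison and direction, among called members whose libraries did not overlap between the groups. All called members met that condition, so the separation of libraries stated for called regions adds nothing to the calls. Also named are the most open at listed genes, the most open of all, and the promoter, miRNA (Smoc1, Aopep) and Neurog2 regions. The promoter, miRNA and Neurog2 regions were added after their values were seen. Gene positions are from RefSeq. Intervals of counting error are not given, because fragments are not marked by molecular identifiers.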

Additional observations from a re-analysis of the deposited data

How the results depend on the processing

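Asking for −log10 q of at least 5 gave 1179 members, and accepting 1 of 2 libraries of each later group gave 7449; leaving out a library in turn gave 2154 to 3587. With the stricter peaks, 598 rose and 30 fell by day 6, 113 rose and 18 fell on day 7, and 6 were higher with Gdf11. DESeq2 gave 31 lower on day 6, 17 lower on day 7 (141 members had no adjusted p there) and 14 higher with Gdf11. The 2 groups alone gave 73 lower on day 7 and 39 higher with Gdf11. Without 1 library the counts were 646 to 816 higher and 20 to 33 lower on day 6, 68 to 136 and 5 to 12 on day 7, and 5 to 10 higher and 298 to 473 lower with Gdf11; fewer libraries enter those fits, and the lone library of a group is assumed to vary like the others. The cause of the other shifts was not tested. Scaling by library size alone moved the median of all regions with Gdf11 from 0.03 to 0.19 and that of the members from -0.44 to -0.28, and on day 7 from -0.02 to -0.12 and from 0.06 to -0.04. Correlations between groups of the differences between replicates 1 and 2 were -0.000744 to 0.0326 over the regions tested. Counting noise in weak regions lowers such a correlation, so it cannot exclude a batch shared by libraries of the same number. In every group replicate 2 had fewer counts and a larger mitochondrial share of counts. On day 7 replicate 1 had 11576260 counts and 9.25%, and replicate 2 had 7501320 and 12.9%. With the number as a replicate block, 951 rose and 58 fell by day 6, 213 and 36 on day 7, and 27 were higher and 616 lower with Gdf11. Of 109 called values of named regions, 16 were lost under an alternative that kept all libraries and 52 without at least 1 library, 57 were called throughout, and 0 changed sign. The Smoc1, Aopep and Neurog2 regions are not in this count, and the calls they lost are given where they are described. Motif letters in windows centred on the regions, at either width, were not run, since no genome was used here. Depth limits the weakest regions: the median count of a member was 31 to 106 in the later libraries.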
